A study of Arabidopsis thaliana with 4 samples.

Results

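The ndhH-ndhD operon of the Arabidopsis thaliana chloroplast genome comprises 8 protein-coding genes that lie next to each other on the minus strand of the small single copy region. The members were taken by name from the TAIR10.1 annotation: rps15, ndhH, ndhA, ndhI, ndhG, ndhE, psaC and ndhD, in the order of transcription. They are 8 of 130 annotated chloroplast gene intervals and span 115665 to 123562, which is 7898 nt. RNA was immunoprecipitated with an HA-specific antibody from the stroma, the soluble phase of the chloroplast, and sequenced (RIP-seq). The plants were 2 weeks old. One group carried the transgene dPPRrbcL, a pentatricopeptide repeat (PPR) protein whose intended RNA partner is the mRNA of rbcL, the large subunit of Rubisco. The other was wild-type Col-0 (WT), which gives the background of the immunoprecipitation. Each group had 2 libraries, and nothing in the labels says whether these came from separate plants, so p-values measure only the spread between these libraries. The promoter of the transgene and the number of independent lines are not given in the sources used here.

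The ndh genes encode subunits of the chloroplast NADH dehydrogenase-like (NDH) complex, which passes electrons from ferredoxin into the plastoquinone pool and works in cyclic electron flow around photosystem I. psaC encodes the subunit of photosystem I that carries its terminal iron-sulfur clusters, and rps15 encodes a protein of the small ribosomal subunit. The genes are transcribed together into long precursor RNAs that are cut, spliced and edited, and the ends of the resulting mRNAs are often set by PPR proteins. The design asked which RNAs other than rbcL were recovered with dPPRrbcL.

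The sequences below show the stretches on which the results turn, in the sense of the mRNA as DNA letters (RefSeq, TAIR10.1 chloroplast genome, minus strand, 5′ to 3′). The first 3 are the 30 nt up to the start codons, in capitals, of ndhH (chrPltd:123190-123219), ndhI (chrPltd:119760-119789) and ndhD (chrPltd:117165-117194), since the spacers before these genes differed most and least in their change and ndhD has an unusual start. The next is a window in the coding sequence of ndhI, chrPltd:119301-119400, where WT was nearly empty. The last are both borders of the ndhA intron, chrPltd:121427-121486 and chrPltd:120347-120406, with exon bases in capitals.
ndhH start: atgccagaacgaatcaaggaaaaacttATG
ndhI start: ataaaattattcagagataattacaatATG
ndhD start: ttggacctggtgtatcttgtctttaccACG
ndhI window: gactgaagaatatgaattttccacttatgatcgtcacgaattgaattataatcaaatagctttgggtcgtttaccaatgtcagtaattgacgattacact
ndhA exon 1 and intron: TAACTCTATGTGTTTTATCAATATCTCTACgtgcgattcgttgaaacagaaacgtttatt
ndhA intron and exon 2: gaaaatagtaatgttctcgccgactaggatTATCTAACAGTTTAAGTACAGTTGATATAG
The genome reads ACG at the annotated start of ndhD and ATG at the starts of the other operon genes; C-to-U editing of the ndhD transcript is known to make its AUG. Coverage files hold no bases, so editing was not measured. The spacers were rich in A and T, with a GC content of 17.9% to 26.7%, against 30.7% (rps15) to 40.2% (psaC) in the genes.

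Reads on the operon were more numerous in dPPRrbcL than in WT. In dPPRrbcL replicates 1 and 2, the mean over the operon was 324.4 and 284.5 reads per nucleotide, against 22.7 and 26.8 in WT replicates 1 and 2. No position of the operon was without reads in either dPPRrbcL library, whereas 9.72% and 11.2% of its positions were without reads in WT replicates 1 and 2. The 4 libraries had similar total coverage, with genome means of 12167 and 12762 in dPPRrbcL, against 12917 and 10373 in WT. rRNA and tRNA genes took 91.5% and 92.5% of it in dPPRrbcL, and 99.0% and 98.7% in WT. The number of reads is unknown, so no counting interval was computed. No input RNA was analysed here, so a transcript that is more abundant in the stroma and one that is recovered better cannot be told apart.

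To compare genes between groups, the mean coverage of each gene was expressed relative to the library's mean coverage outside rRNA and tRNA genes. On this scale the operon stood at 27.5% and 26.0% of that mean in dPPRrbcL and at 15.5% and 17.5% in WT. Its share of the summed coverage outside rRNA and tRNA genes was 1.56% ± 0.06 (SD, n = 2) in dPPRrbcL, against 0.964% ± 0.084 (SD, n = 2) in WT. The groups did not overlap, and the difference in log2 was 0.70 ± 0.14 (SD). As a percentage of the coverage of protein-coding genes other than rbcL, the operon had 3.16 and 3.01 in dPPRrbcL, against 2.59 and 2.52 in WT, which is a smaller difference of 0.27 in log2. An exact two-sided permutation test of 2 against 2 libraries cannot give p below 0.333, and the share outside rRNA and tRNA genes gave that value.

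The level of the operon genes fell into the same broad order in all 4 libraries. psaC and ndhA were the highest, followed by ndhD, then ndhI and ndhG, then ndhE, ndhH and rps15. psaC and ndhA changed places between the libraries of each group, as did ndhI and ndhG within dPPRrbcL, so these neighbours did not differ beyond their spread. ndhA, in first or second place, was covered 2.93 times as deeply as ndhH in dPPRrbcL replicate 1. In the other libraries the highest gene was covered 3.18 times (dPPRrbcL replicate 2), 8.02 times (WT replicate 1) and 6.82 times (WT replicate 2) as deeply as ndhH. The levels within the operon were thus closer to each other in dPPRrbcL than in WT, by ratios taken within each library.

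**Figure D1:**
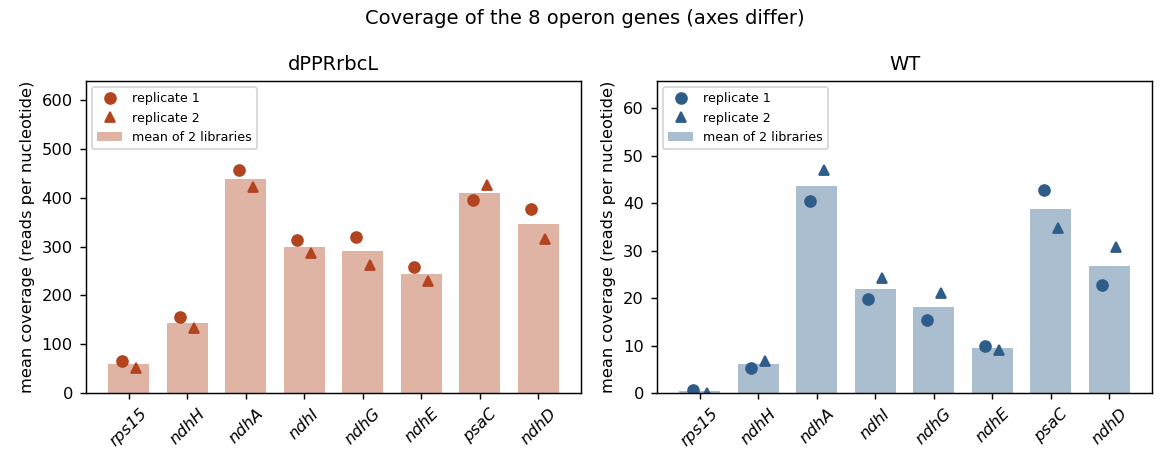
Mean coverage of each operon gene in reads per nucleotide (vertical axis) in dPPRrbcL (left panel) and WT (right panel), in the order of transcription; bars are means of 2 libraries and points are the libraries, and the axes differ between panels. psaC and ndhA are the tallest in both panels, while rps15, ndhH and ndhE are relatively lower in WT.

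On the scale of coverage outside rRNA and tRNA genes, 7 of the 8 operon genes rose in dPPRrbcL and none (0) fell (limma, Benjamini-Hochberg adjusted over the 112 genes tested). Among all genes tested, 66.1% were called higher and 15.2% lower by the same rule. All 8 operon genes had both dPPRrbcL libraries above both WT libraries on this scale, which held for 75.9% of all genes tested. The median log2 change of the operon genes was 0.91, against 1.01 for all genes, so the operon as a whole moved about as much as the median gene. The genes rps15, ndhH and ndhE had a WT coverage under the minimum of 10 reads per nucleotide and passed the filter only through dPPRrbcL, so their calls are not support for a difference. Without dPPRrbcL replicate 1, or without dPPRrbcL replicate 2, 3 of 8 were called, namely ndhE, ndhH and rps15, as were 38.4% and 37.5% of all genes. At an unadjusted p under 0.05, limma with all 4 libraries had 8 operon genes higher and 0 lower, and 78 of 112 genes higher and 17 lower.

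The scale itself carried a difference between groups. Coverage outside any gene made up 27.1% and 28.0% of the coverage outside rRNA and tRNA genes in dPPRrbcL, and 60.2% and 54.0% in WT. Scaled instead to protein-coding genes other than rbcL, the median change of all genes was 0.63 and 5 of 8 operon genes were called higher: rps15, ndhH, ndhI, ndhG and ndhE. Of all 112 genes, 49.1% were higher and 23 were lower on that scale. Scaled by the median ratio over genes, 3 were higher (ndhE, ndhH and rps15) and 1 was lower (ndhA), and 29.5% of all genes were higher; 48.5% of all calls were higher in place of 81.3%. Changes are therefore given below also relative to the median gene without a pseudocount, which is the same under each scaling; this covers 109 genes with coverage in every library.

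rps15, the most upstream gene (123296 to 123562, ArthCp081), was nearly absent from WT. In dPPRrbcL replicates 1 and 2 it had 65.7 and 52.5 reads per nucleotide, against 0.779 and 0 in WT replicates 1 and 2. The groups did not overlap, and in WT replicate 2 no position of the gene had a read. Its log2 change was 2.32 (SE 0.24 and adjusted p = 0.0019 by limma), the largest of the operon on this scale and rank 11 of 112 genes. The gene passed the filter only through dPPRrbcL, so this p-value is not support for a difference. The log2 change depends on the pseudocount, since WT replicate 2 is at 0. With a pseudocount of 10% it was 0.57, below ndhE (0.94), ndhH (0.69) and ndhG (0.69), and scaled to the library total it was 0.56, the smallest of the 8 genes.

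ndhH (122011 to 123192, ArthCp080) encodes a hydrophilic subunit of the NDH complex. It had 155.6 and 133.7 reads per nucleotide in dPPRrbcL, against 5.33 and 6.88 in WT. Both dPPRrbcL libraries were far above both WT libraries. The log2 change was 1.44 (SE 0.13 and adjusted p = 0.0011 by limma). Without a pseudocount it exceeded the median gene by 0.60. WT coverage of ndhH lay under the minimum coverage of the filter, so ndhH passed it only through dPPRrbcL. The p-value of ndhH is therefore not support for a difference.

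ndhA (119847 to 122009, ArthCp079), which encodes a membrane subunit and is the only operon gene with an intron, had 456.3 and 422.1 reads per nucleotide in dPPRrbcL, against 40.4 and 47.0 in WT. As a percentage of the mean outside rRNA and tRNA genes this was 38.7% ± 0.07 (SD, n = 2) in dPPRrbcL, against 29.1% ± 2.2 (SD, n = 2) in WT. The libraries did not overlap, but the difference was small. The log2 change was 0.40 (SE 0.10 and adjusted p = 0.0202 by limma), and it was -0.02 (adjusted p = 0.862 by limma) when scaled to protein-coding genes other than rbcL. Without a pseudocount ndhA lay below the median gene, with an excess of -0.64.

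ndhI (119244 to 119762, ArthCp078), whose product carries iron-sulfur clusters, had 312.5 and 286.2 reads per nucleotide in dPPRrbcL, against 19.8 and 24.3 in WT. Its log2 change was 0.81 (SE 0.11 and adjusted p = 0.0039 by limma). ndhG (118377 to 118907, ArthCp077), a membrane subunit, had 319.4 and 262.1 reads per nucleotide in dPPRrbcL, against 15.4 and 21.1 in WT. Both genes were without overlap between groups and stood near the median gene, with excesses of -0.20 (ndhI) and 0.04 (ndhG). The log2 change of ndhG was 1.02 (SE 0.16 and adjusted p = 0.006 by limma). On median coverage ndhI changed by 2.61 (adjusted p = 0.000516 by limma), and relative to the operon by 2.21 (adjusted p = 0.00593 by limma) in place of 0.15 (adjusted p = 0.292 by limma). Its median coverage was 272 and 259 in dPPRrbcL, against 5 and 4 in WT. The WT medians lay under the minimum coverage of the filter, which was applied to mean coverage. The p-values of ndhI on median coverage are therefore not support for a difference.

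ndhE (117804 to 118109, ArthCp076), a small membrane subunit, had a larger change than the genes on either side on the scale of coverage outside rRNA and tRNA genes. It had 257.5 and 229.6 reads per nucleotide in dPPRrbcL, against 9.88 and 9.16 in WT. The libraries of each group were close together and the groups lay far apart. The log2 change was 1.61 (SE 0.10 and adjusted p = 0.000529 by limma), with an excess over the median gene of 0.71. WT coverage was under the minimum of 10, so this p-value is not support for a difference. Scaled to the library total, ndhE changed by 1.45, less than ndhG (1.52) and psaC (1.69). With that pseudocount lowered to 0.1%, ndhE changed by 3.49, more than ndhG (3.23) and psaC (2.97).

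psaC (117318 to 117563, ArthCp075) was among the highest genes of the operon and among its smallest differences. It had 395.1 and 425.7 reads per nucleotide in dPPRrbcL, against 42.8 and 34.8 in WT. As a percentage of the mean outside rRNA and tRNA genes this was 36.2% ± 3.8 (SD, n = 2) in dPPRrbcL, against 26.0% ± 4.6 (SD, n = 2) in WT. The groups did not overlap, but the log2 change of 0.47 (SE 0.17) missed the threshold (adjusted p = 0.0556 by limma). Without WT replicate 1 the log2 change was 0.64, and without WT replicate 2 it was 0.30. The excess over the median gene was -0.56. Within each library, psaC was covered 1.26 and 1.55 times as deeply as the mean of the 6 ndh genes in dPPRrbcL, and 2.26 and 1.50 times in WT. These ratios overlapped between groups (exact two-sided permutation p = 0.667, n = 2 per group). The overlap ended on median coverage, with 1.36 and 1.64 in dPPRrbcL, against 3.40 and 2.34 in WT. It also ended against ndhE and ndhD alone, with 1.24 and 1.56 in dPPRrbcL, against 2.61 and 1.74 in WT.

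ndhD (115665 to 117167, ArthCp074), the last gene, encodes a large membrane subunit. It had 377.2 and 316.0 reads per nucleotide in dPPRrbcL, against 22.9 and 30.8 in WT. The libraries did not overlap on the scaled level. The log2 change was 0.75 (SE 0.16 and adjusted p = 0.0127 by limma), and 0.34 (adjusted p = 0.0593 by limma) when scaled to protein-coding genes other than rbcL. Without a pseudocount ndhD lay below the median gene, with an excess of -0.27.

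To compare the genes within the operon, each library was scaled to its own operon mean. Relative to the operon, 3 of 8 genes rose in dPPRrbcL and 0 fell; of all 112 genes tested, 41.1% were higher and 25.9% lower on this scale. ndhH stood at 47.5% ± 0.68 (SD, n = 2) of the operon mean in dPPRrbcL, against 24.6% ± 1.5 (SD, n = 2) in WT, a log2 change of 0.92 (SE 0.12 and adjusted p = 0.0051 by limma). ndhE stood at 80.0% ± 0.96 (SD, n = 2) in dPPRrbcL, against 38.8% ± 6.6 (SD, n = 2) in WT, a log2 change of 1.03 (SE 0.16 and adjusted p = 0.0081 by limma). rps15 stood at 20.3% and 18.4% in dPPRrbcL, against 3.43% and 0% in WT, a log2 change of 3.27 (SE 0.77 and adjusted p = 0.0229 by limma). With a pseudocount of 0.1% the call of rps15 was lost (adjusted p = 0.0813 by limma). These 3 genes had a WT coverage under the minimum of 10 and passed the filter only through dPPRrbcL. Their p-values relative to the operon are therefore not support for a difference.

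The other genes missed the threshold relative to the operon. ndhA had 145% ± 5.5 (SD, n = 2) of it in dPPRrbcL, against 177% ± 2.0 (SD, n = 2) in WT. Its log2 change of -0.29 missed the threshold (adjusted p = 0.0817 by limma). psaC had 136% ± 19.7 (SD, n = 2) in dPPRrbcL, against 159% ± 41.5 (SD, n = 2) in WT, a log2 change of -0.21 (SE 0.24 and adjusted p = 0.472 by limma) that was smaller than the spread of WT. Without dPPRrbcL replicate 1, or without dPPRrbcL replicate 2, no operon gene was called by limma relative to the operon, nor was any of the 112 genes. At an unadjusted p under 0.05, 2 operon genes were higher and 0 lower in each of these fits. Over all 112 genes, 28 were higher and 21 lower without dPPRrbcL replicate 1, and 25 and 24 without dPPRrbcL replicate 2. Without WT replicate 2, the log2 change relative to the operon was -0.48 for psaC and 0.49 for ndhG. Without WT replicate 1, it was 0.056 for psaC and 0.27 for ndhG. Each of these fits kept a lone WT library, so the spread of WT does not enter them.

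**Figure D2:**
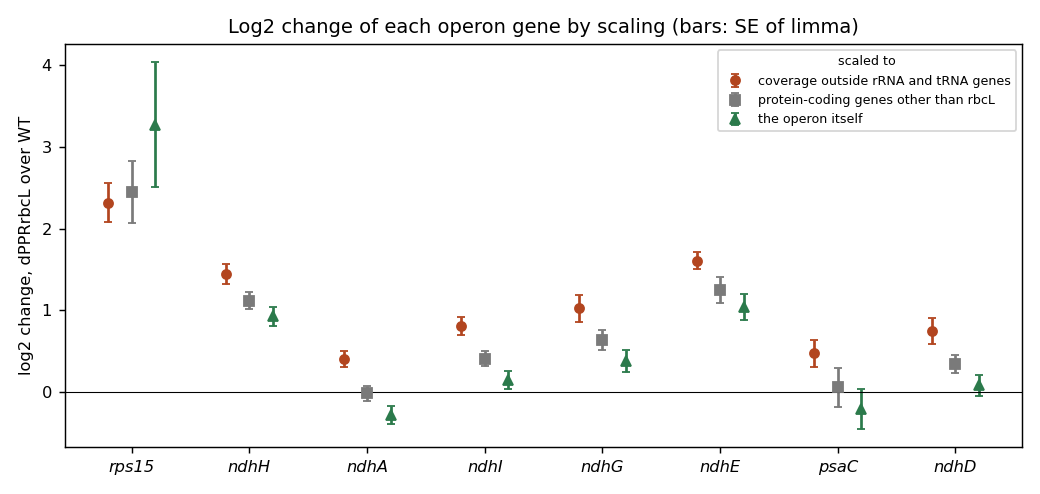
Log2 change of dPPRrbcL over WT (vertical axis) for each operon gene, in the order of transcription, under 3 scalings; points are limma estimates and bars their SE. rps15, ndhH and ndhE lie above the other 5 genes under the 3 scalings drawn (scaled to the library total they were the lowest, with 0.56, 1.04 and 1.45), while ndhA and psaC lie near or below 0 once the operon or other protein-coding genes set the scale.

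Spacers between the genes were covered too. The spacer between rps15 and ndhH (123193 to 123295), whose last bases are shown above, had 148.2 and 133.5 reads per nucleotide in dPPRrbcL, against 1.34 and 0.0583 in WT. Its log2 change was 3.25 (SE 0.32 and adjusted p = 0.00144 by limma over 251 exons, introns and spacers), the largest among the operon's parts. The spacer between ndhG and ndhE (118110 to 118376) had 126.9 and 88.2 reads per nucleotide in dPPRrbcL, against 0.839 and 3.07 in WT, a log2 change of 2.25 (SE 0.36 and adjusted p = 0.0051 by limma). The spacer between ndhI and ndhG (118908 to 119243) had 199.7 and 134.7 in dPPRrbcL, against 4.99 and 7.32 in WT, a log2 change of 1.62 (SE 0.22 and adjusted p = 0.0035 by limma). In each of these spacers the groups did not overlap. WT coverage was under the minimum of 10, so these spacers passed the filter only through dPPRrbcL, and their p-values are not support for a difference. The lack of overlap was not particular to them, since it also held on the scaled level for parts that missed the threshold. Among these were the ndhA intron and the spacer between ndhA and ndhI. The share of all 251 parts without overlap is not given here.

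The other spacers were well covered in WT and showed no difference past the threshold. The spacer between ndhA and ndhI (119763 to 119846), whose last bases are shown above, had 589.5 and 470.5 reads per nucleotide in dPPRrbcL, against 61.5 and 64.5 in WT. It was the most deeply covered spacer of the operon in both groups, with a log2 change of 0.14 (SE 0.12 and adjusted p = 0.35 by limma). The spacer between ndhE and psaC (117564 to 117803) had 354.1 and 255.1 in dPPRrbcL, against 25.4 and 31.7 in WT, a log2 change of 0.46 (adjusted p = 0.0711 by limma). The spacer between psaC and ndhD (117168 to 117317) had 322.4 and 271.9 in dPPRrbcL, against 38.3 and 27.8 in WT, a log2 change of 0.25 (adjusted p = 0.312 by limma), and its groups overlapped on the scaled level.

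Of the exons and the intron of ndhA, exon 2 alone passed the threshold on mean coverage. Exon 2 (119847 to 120376) had 546.3 and 458.1 reads per nucleotide in dPPRrbcL, against 33.5 and 37.5 in WT, and rose by a log2 of 0.87 (SE 0.12 and adjusted p = 0.0033 by limma). Exon 1 (121457 to 122009) had 459.5 and 389.8 in dPPRrbcL, against 35.05 and 46.6 in WT, a log2 change of 0.45 (adjusted p = 0.0567 by limma). The intron (120377 to 121456) had 410.4 and 421.1 in dPPRrbcL, against 46.6 and 51.8 in WT, a log2 change of 0.15 (adjusted p = 0.273 by limma). On median coverage the intron and exon 1 passed as well, with log2 changes of 0.79 (adjusted p = 0.0163 by limma) and 0.67 (adjusted p = 0.0115 by limma). The spacers called higher passed the filter only through dPPRrbcL, so their calls, also those counted next, are not support for a difference. In all, 4 of the 9 spacers and ndhA parts were higher and 0 lower, against 62.2% higher and 15.1% lower of all 251 such parts of the genome. Without dPPRrbcL replicate 1 the number was 2 (35.1% of all parts), and without WT replicate 2 it was 6 (71.3% of all parts).

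Exon 2 was covered more deeply than the intron in both dPPRrbcL libraries and less deeply in both WT libraries. The ratio of intron to exon coverage was 0.818 and 0.995 in dPPRrbcL replicates 1 and 2, against 1.36 and 1.23 in WT replicates 1 and 2. The groups did not overlap, with a log2 difference of -0.52 ± 0.23 (SD) and the smallest p that the exact test allows. From median in place of mean coverage, the ratios were 0.719 and 0.875 in dPPRrbcL, against 1.04 and 0.688 in WT. These overlapped, and the log2 difference was -0.09, so the difference did not hold for median coverage.

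Both borders of the intron had coverage on either side. Coverage per nucleotide does not show whether single reads spanned a border. Over 20 nt on each side of the border with exon 2, the intron side had 0.932 and 0.909 times the coverage of the exon side in dPPRrbcL, and 0.771 and 0.944 times in WT. At the border of exon 1 these ratios were 0.593 and 0.576 in dPPRrbcL, against 0.513 and 0.352 in WT. The intron side was lower at exon 1 than at exon 2 in all 4 libraries.

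The highest coverage of the operon lay around the intron's 3′ end. It reached 1053 and 1029 reads at 120365 in dPPRrbcL replicate 1 and at 120364 in dPPRrbcL replicate 2, within the first bases of exon 2 shown above. In dPPRrbcL replicate 2 the intron reached the same 1029 reads at 120541, 165 nt before exon 2. In WT the maximum was 150 reads at 120543 in replicate 1 and 182 reads at 120557 in replicate 2, both in the intron. Hence the start of exon 2 held the highest position in both dPPRrbcL libraries, tied with the intron in replicate 2, and the intron held it in both WT libraries.

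**Figure D3:**
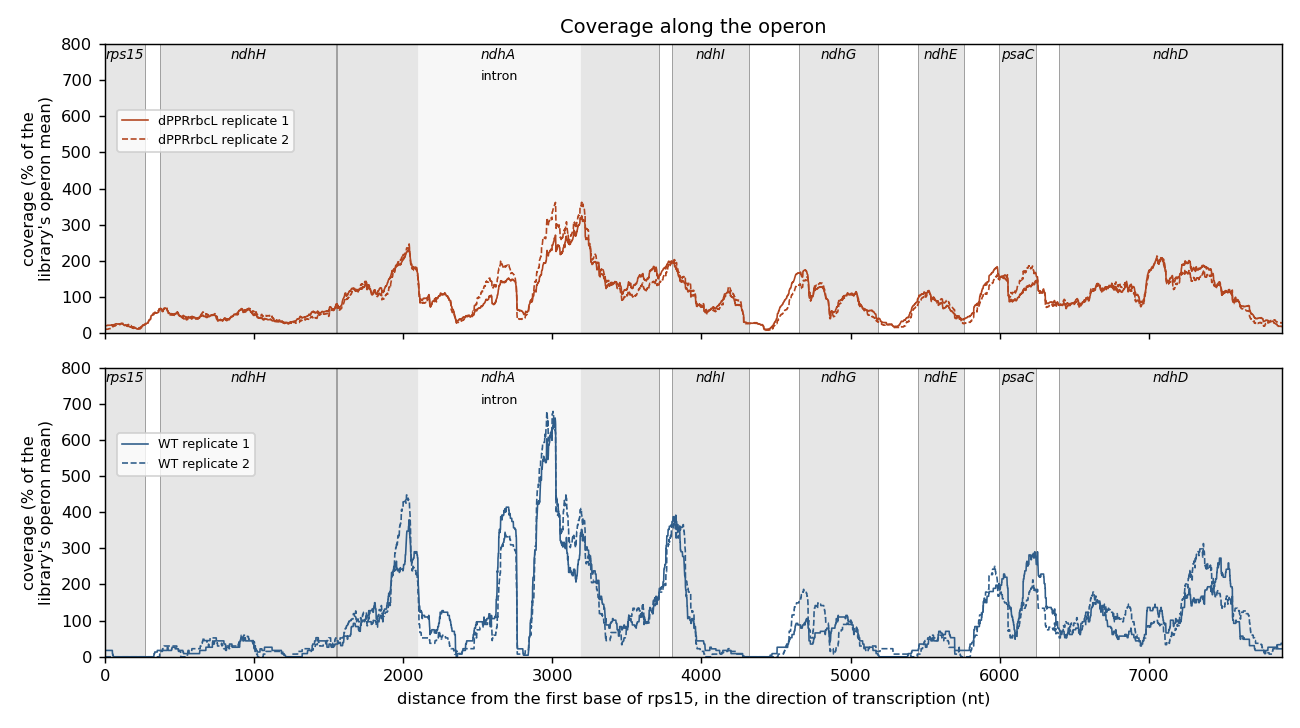
Coverage at each nucleotide of the operon as a percentage of the library's operon mean (vertical axis), against the distance in nt from the first base of rps15 in the direction of transcription, for dPPRrbcL (upper panel) and WT (lower panel); solid and dashed lines are the 2 libraries and grey boxes the genes. The hills lie at the same places in both groups, and the valleys of WT at rps15, the 3′ part of ndhI and the spacers near ndhG fall to or near 0.

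The shape of coverage along the operon was alike in the 4 libraries. Over 78 windows of 100 nt, Spearman's rho of coverage was 0.96 between the dPPRrbcL libraries and 0.94 between the WT libraries. Between groups it was 0.88 to 0.91. Neighbouring windows share reads and all libraries share the same sequence, so these values describe the profiles only.

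Within the operon, 51 of 78 windows rose in dPPRrbcL and 0 fell (adjusted p by limma under 0.05 over 1372 windows), against 48.3% higher and 11.2% lower genome-wide. At an unadjusted p under 0.05, limma had 56 operon windows higher and 1 lower, against 757 higher and 172 lower of all 1372 windows. By the sign of the estimate, 74 operon windows were above 0 and 4 below. No such count over all windows is given here, so these signs do not set the operon apart. The median log2 change of the operon windows was 1.06, against 0.90 for all windows tested. All 10 windows inside ndhH were called, as were 2 of 2 in rps15 and 2 of 2 in ndhE. In ndhD 8 of 14 were called and in ndhA 11 of 21. Mean WT coverage was 0 in both rps15 windows and 1.48 to 10.6 in the ndhH windows. Windows with a WT coverage under the minimum of 10 passed the filter only through dPPRrbcL. Their calls, also those within the 51, are not support for a difference. Without dPPRrbcL replicate 1, or without dPPRrbcL replicate 2, no window of the genome passed the threshold of limma. At an unadjusted p under 0.05, 23 operon windows were higher without dPPRrbcL replicate 1 and 31 without dPPRrbcL replicate 2, and 0 were lower. Of all 1372 windows, 397 were higher and 110 lower without dPPRrbcL replicate 1, and 400 and 114 without dPPRrbcL replicate 2. Scaled to protein-coding genes other than rbcL, 26 operon windows were higher and 3 lower, against 28.6% higher of all windows and 201 of 1372 lower.

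The windows with the largest changes lay in the valleys of WT. They too passed the minimum of 10 only through dPPRrbcL, so their p-values describe the fit and are not support. Scaled to the library total their lead was lost, with 1.04 for the window from 123201, against 1.82 for the window from 120501. The window from 123201 to 123300, in the spacer before ndhH, had 139.2 and 125.7 reads per nucleotide in dPPRrbcL, against 1.06 and 0 in WT, with a log2 change of 3.27 (SE 0.31 and adjusted p = 0.00264 by limma). The window from 119301 to 119400, in the 3′ part of ndhI and shown above, had 309.4 and 298.5 in dPPRrbcL, against 2.74 and 3.78 in WT, a log2 change of 3.14 (adjusted p = 0.00192 by limma). The adjoining window from 119201 to 119300, at the end of ndhI, had 117.8 and 102.4 in dPPRrbcL, against 0.31 and 0.44 in WT, a log2 change of 3.10 (adjusted p = 0.00192 by limma).

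Windows with low changes included 2 in the ndhA intron, which were not the lowest of the operon. The window from 120801 to 120900 had 467.1 and 490.8 reads per nucleotide in dPPRrbcL, against 87.2 and 84.0 in WT, a log2 change of -0.43 (adjusted p = 0.0995 by limma). The window from 120501 to 120600 had 763.7 and 886.6 in dPPRrbcL, against 119.8 and 144.6 in WT, a log2 change of -0.27 (adjusted p = 0.301 by limma). Neither passed the threshold. Scaled to protein-coding genes other than rbcL, the window from 120801 was lower past it, with a log2 change of -0.85 (adjusted p = 0.0413 by limma).

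**Figure D4:**
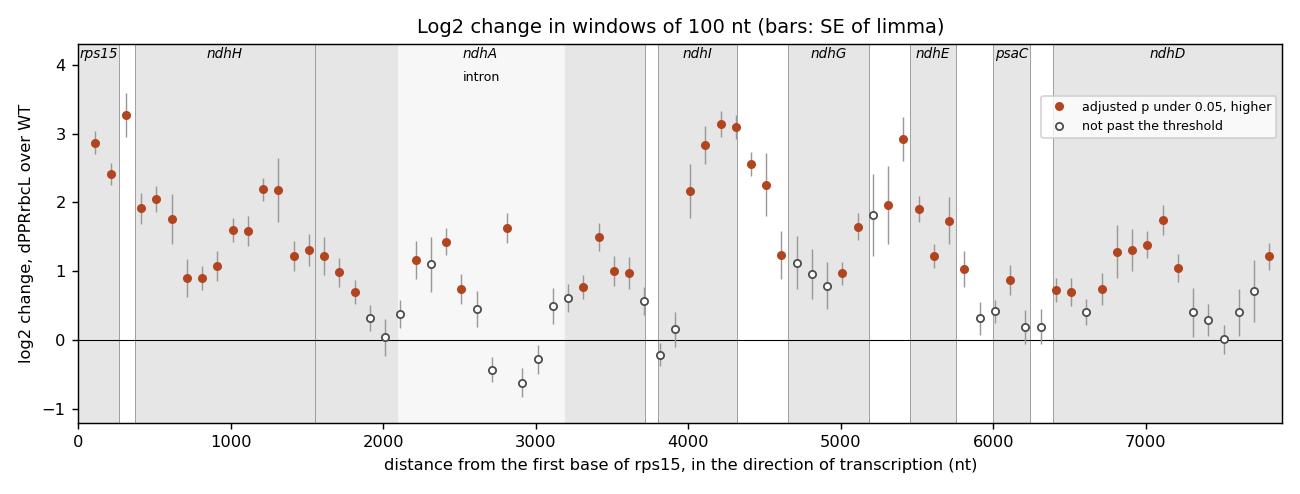
Log2 change of dPPRrbcL over WT (vertical axis) in each window of 100 nt, against the distance in nt from the first base of rps15 in the direction of transcription; points are limma estimates, bars their SE, filled points passed the threshold and grey boxes are the genes. The change peaks at rps15 and its spacer and at the 3′ part of ndhI, and dips below 0 within the ndhA intron.

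ndhI showed the sharpest contrast within a gene. Its first 259 nt had 373.2 and 349.7 reads per nucleotide in dPPRrbcL, against 36.9 and 46.1 in WT. Its last 259 nt had 252.1 and 223.1 in dPPRrbcL, but only 2.78 and 2.47 in WT. The ratio of the first to the last part was 1.48 and 1.57 in dPPRrbcL, against 13.3 and 18.7 in WT, a log2 difference of -3.37 ± 0.35 (SD) that was far larger than the spread between libraries. The exact two-sided permutation test gave p = 0.333, the smallest it allows with n = 2 per group. In WT the last part of ndhI lay under the minimum coverage of the filter, and the ratio was taken without a pseudocount. The size of the WT ratios, and so of the log2 difference, therefore rests on low coverage and is uncertain. This measure was chosen after seeing the data.

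In the other genes covered in every library this ratio differed less between groups. In ndhH it was 1.08 and 1.11 in dPPRrbcL, against 1.19 and 1.48 in WT. In psaC it was 0.976 and 0.797 in dPPRrbcL, against 0.688 and 0.696 in WT. In ndhD it was 1.10 and 1.22 in dPPRrbcL, against 0.781 and 0.742 in WT, so the 5′ part was the deeper one in dPPRrbcL and the 3′ part in WT.

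The position of the highest coverage within a gene was close between replicates for some genes only. In ndhI it lay 3 and 18 nt after the first base in dPPRrbcL and 28 and 16 nt in WT. In ndhE it lay at 73 nt in both dPPRrbcL libraries, and at 209 and 158 nt in WT. In ndhG it lay at 41 and 54 nt in dPPRrbcL and at 323 and 31 nt in WT. In psaC it lay at 12 and 203 nt in dPPRrbcL, and at 238 and 225 nt in WT, near the stop codon. In ndhD it lay at 694 and 660 nt in dPPRrbcL and further downstream, at 1090 and 972 nt, in WT. In ndhH both dPPRrbcL libraries were highest at the last base of the gene, next to ndhA, and the WT libraries at 1060 and 584 nt. In rps15 it lay at 113 and 120 nt in dPPRrbcL; WT replicate 1 reached 4 reads at 49 nt and WT replicate 2 had none.

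Rises in coverage along the operon were small in dPPRrbcL. The largest rise over 10 nt, in the mean of the dPPRrbcL libraries, was 1.42-fold at 119079 in the spacer between ndhI and ndhG. The next was 1.35-fold at 117735 in the spacer before psaC, where the rise was 1.33- and 1.37-fold in dPPRrbcL and 1.86- and 1.80-fold in WT. The third was 1.32-fold at 120720 in the ndhA intron, where coverage rose 1.29- and 1.36-fold in dPPRrbcL but 7.0- and 2.57-fold in WT, there from 1.60 and 5.30 reads per nucleotide before the step.

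Genes elsewhere gave a reference for these values. Among 6 intervals of NDH genes outside the operon (ndhJ, ndhK, ndhC, ndhF and both copies of ndhB, which share their sequence), 4 were higher and 0 lower, with log2 changes of -0.06 to 0.90 and a median of 0.40. Of these 4, ndhF had 59.1 and 52.3 reads per nucleotide in dPPRrbcL, against 4.84 and 5.06 in WT. It passed the filter only through dPPRrbcL, so its call is not support for a difference. Among the other photosystem I genes, psaI and psaJ were higher, with log2 changes of 2.85 (adjusted p = 0.00024 by limma) and 0.82 (adjusted p = 0.00283 by limma), and psaA and psaB missed the threshold, with 0.02 and 0.07. Over all 85 protein-coding genes tested, 66 were higher and 3 lower, with a median of 1.08. Over the log2 scaled levels in the 4 libraries, the genes nearest to psaC were petN (Euclidean distance 0.31), ndhC (0.74) and atpI (0.77). Those nearest to the median of the 6 operon ndh genes were 1 copy of rps7 (0.35), psaJ (0.36) and ndhJ (0.45).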

How the data were processed

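RIP-seq coverage of the chloroplast genome was analysed in 2 dPPRrbcL and 2 WT libraries. A NEBNext Ultra II kit and 50 ng of RNA were used per library, per the labels' protocols. The deposited files give a signal, the read coverage in reads per nucleotide at positions 1 to 154478, per the file headers. The values are whole numbers, and no header or label records a normalization; mapper, build and use of strand are not given in the sources used here. The length equals that of the TAIR10.1 chloroplast sequence, whose annotation and RefSeq sequence were therefore used (130 gene intervals). Without strand, antisense reads cannot be told apart.

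Mean coverage per gene, part or window was taken relative to the mean coverage of that library outside rRNA and tRNA genes, a pseudocount of 1% of that mean was added (10.9 to 11.8 reads per nucleotide in dPPRrbcL, 1.47 to 1.53 in WT), and log2 was taken, so changes of low features are understated. The same was done relative to the mean of the operon. Features with a mean coverage of at least 10 were tested with limma 3.58.1 in R 4.3.3, with Benjamini-Hochberg adjustment at 0.05 over the whole table; tests were checked on simulated data. Other steps used Python 3.11.15, numpy 2.4.6, pandas 2.3.3 and scipy 1.17.1. Genes, parts, the 3 highest and lowest windows, the highest positions, the 3 largest steps and the nearest genes were named by rule; 1 of these windows, with a lower change than those given, is not reported here. The members and lists were chosen with earlier results of these data known. Alternatives covered scaling, pseudocount, filter, intensity trend, median coverage, window length, the inverted repeat (84171 to 110434 and 128215 to 154478) left out, the replicate block and leaving out each library.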

Additional observations from a re-analysis of the deposited data

How the results depend on the processing

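Log2 changes of the operon depended most on the scaling. By the median ratio, the operon genes called higher numbered 3 and lower 1, against 33 and 35 of all 112 genes. Operon parts called lower numbered 2, against 76 of all 251 parts. Operon windows numbered 17 higher and 4 lower, against 270 and 266 of all 1372 windows. The log2 changes then turned negative for ndhD (-0.16), psaC (-0.45), ndhI (-0.094), ndhA (-0.52), ndhA exon 1 (-0.47), exon 2 (-0.048) and intron (-0.77), and for the spacers psaC-ndhD (-0.66), ndhE-psaC (-0.44) and ndhA-ndhI (-0.79). Scaled to protein-coding genes other than rbcL, they were -0.018 for ndhA, -0.26 for its intron, -0.17 for the psaC-ndhD spacer and -0.28 for the ndhA-ndhI spacer. Operon windows then numbered 26 higher and 3 lower, against 392 and 201 of all 1372 windows. Scaled to the library total, all 9 parts and all 78 windows were higher, as were 99.2% of all parts and 94.7% of all windows, also with a pseudocount of 0.1% (chosen after seeing the data). The windows from 120501 and 120801 then changed by 1.82 and 1.48, and with that pseudocount by 2.44 and 2.23. Scaled to the library total, whose pseudocount exceeds the WT coverage of every operon gene, the order of the genes turned: rps15 (0.56), ndhH (1.04) and ndhE (1.45) were the lowest, against 1.51 to 1.71 for the other 5. With that pseudocount lowered to 0.1%, rps15 (2.47) was still the lowest and ndhE (3.49) was the highest.

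With a minimum coverage of 100, fewer features were tested. Relative to the operon, 1 of 6 operon genes was higher, against 37% of all 81 genes. Of the 6 operon parts 2 were higher, against 62.4% of all 173 parts. Of the 51 operon windows 31 were higher and 1 lower, against 414 and 164 of all 801 windows. With median coverage, 5 genes were higher relative to the operon (37.5% of all genes), and 1 operon window was lower (146 of all 1372 windows). ndhI then changed by 2.61 and relative to the operon by 2.21, and ndhA changed by 0.20 relative to the operon. The log2 difference of the psaC to ndh ratio was -0.91 in place of -0.40. That of the ndhA intron to exon ratio was -0.091 in place of -0.52. Scaled to the mean of the 8 genes, 1 operon gene (ndhA) was lower, against 34 of all 112 genes, and ndhD changed by -0.053. The operon share relative to protein-coding genes other than rbcL differed by 0.27 in place of 0.70. Operon windows lower numbered 2 with a pseudocount of 10% and 1 with an intensity trend, against 181 and 178 of all 1372 windows. Windows of 50 nt gave 91 of 157 higher, against 45% of all such windows. Windows of 200 nt gave 26 of 38, against 54.6% of all. The median WT coverage of ndhI lay under the minimum coverage of the filter, so its calls on median coverage are not support for a difference. The cause of the changes under median coverage was not tested.

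Across the fits that each left out a library, where a lone library is assumed to vary like the other group, genes higher ran from 3 to 8, genes higher relative to the operon from 0 to 4 and lower from 0 to 1, parts higher from 2 to 6, and windows higher from 0 to 64 and lower from 0 to 1. The log2 difference of the psaC ratio ran from -0.69 to -0.10, that of the ndhA intron ratio from -0.66 to -0.38 and that of the operon share from 0.61 to 0.79. Relative to the operon, ndhD ran from -0.018 to 0.17 and psaC from -0.48 to 0.056; the psaC-ndhD spacer ran from -0.0018 to 0.50.

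The replicate block, from numbers in the sample titles that nothing ties to a shared source, left 6 of 8 operon genes higher (ndhA was lost), against 64.3% of all genes. The same-number correlation of deviations over genes was -0.23. A crossed replicate block, chosen after seeing the data, gave 8, against 65.2% of all genes. Shallow WT coverage, under 10 reads per nucleotide over rps15, ndhH and ndhE, limits the size of their changes.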

Other observations

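Coverage continued at a low level into the spacers that flank the operon. In both spacers WT coverage lay under the minimum coverage of the filter, so they passed it only through dPPRrbcL. Their p-values are therefore not support for a difference. The spacer between ndhD and ccsA (115448 to 115664), downstream of the operon, had 39.6 and 37.4 reads per nucleotide in dPPRrbcL, against 1.33 and 1.86 in WT, a log2 change of 1.09 (limma adjusted p = 0.00219). The spacer between rps15 and ycf1 (123563 to 123883), upstream of it, had 29.9 and 15.1 in dPPRrbcL, against 1.41 and 0 in WT, a log2 change of 1.05 that missed the threshold (adjusted p = 0.0679 by limma).

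Windows of low WT coverage had the larger changes on the scale of coverage outside rRNA and tRNA genes. To keep the same WT library off both sides, the change of dPPRrbcL replicate 1 over WT replicate 1 was set against the coverage in WT replicate 2, and Spearman's rho over the 78 operon windows was -0.78. With the replicates exchanged it was -0.76. Over all 1372 windows the values were -0.51 and -0.52. The windows share reads with their neighbours, and these values describe the libraries only. GC content followed the change weakly, with a rho of -0.20 over the 78 windows. Scaled to the library total, the window from 123201, nearly empty in WT, changed by 1.04, less than the well-covered window from 120501 (1.82). With that pseudocount lowered to 0.1%, these windows changed by 3.48 and 2.44.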
